A study of Mus musculus with 18 samples.

Results

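The genes described here encode the heat shock proteins and their DnaJ partners, the chaperones that keep proteins folded in the cytosol, the mitochondria and the lumen of the endoplasmic reticulum (ER). They were taken from the expression tables by symbol alone, as every row named as a member of the Hspa, Hspb, Hspd, Hspe, Hsph, Hsp90, Dnaja, Dnajb or Dnajc series, with no use of their values. The rule found 67 genes under 66 symbols among 18838 genes listed in any table. Families were read from the symbol alone, so that the HSP110-like Hspa4l and the related Hspa4 count as HSP70. By symbol there were 14 HSP70 genes (Hspa), 3 of HSP90, 1 of HSP110 (Hsph) and 5 small heat shock proteins (Hspb). The others were the 2 subunits of the mitochondrial HSP60 and HSP10 chaperonin and 42 DNAJ genes, of which 4 were DNAJA, 12 DNAJB and 26 DNAJC.

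HSP70 proteins bind short hydrophobic stretches of unfolded proteins and release them in a cycle driven by ATP. DNAJ proteins deliver clients to HSP70 and start ATP hydrolysis through their J domain, and HSP110 proteins help ADP leave. Part of the family is induced by heat shock factor 1 (HSF1) when unfolded protein builds up in the cytosol, and another part by the unfolded protein response when it builds up in the ER, a compartment that is large in the secretory cells of the gut.

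The study compared mice labelled WT with littermates labelled Mtgr1-/-, which lack the transcriptional corepressor MTGR1 (gene Cbfa2t2) in all tissues. Duodenal crypts of male and female mice aged 8 to 12 weeks were taken for RNA directly (day 0) or grown as enteroids, small epithelial cultures in Matrigel with EGF, Noggin and R-spondin, for 24 h (day 1) or 72 h (day 3). Polyadenylated RNA was sequenced from 3 mice per genotype at each time point, 18 libraries in all, and the labels number the mice 1 to 3 per genotype at every time point. Normalized counts below are the deposited values, which were scaled within each time point, and a fold change is the difference of mean log2(normalized count + 1), Mtgr1-/- minus WT, with its standard error (SE) from limma and a p-value adjusted over all genes tested at that time point.

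Reads recovered from the deposited values ran from 22035316 to 28621990 per library in the 16 libraries marked as recovered. Counts of Cbfa2t2, summed over its transcripts, did not separate the labels: they were 614, 523 and 595 in WT crypts against 697, 466 and 534 in crypts labelled Mtgr1-/-, and its adjusted p (limma) was 0.917 in crypts, 0.0557 on day 1 and 0.686 on day 3. The exons missing from the null allele were not given in the sources used here, so that this sum does not check the label, and genotype stands below for the label of a library. The 7 epithelial markers were all above the filter at each time point, while all fibroblast and smooth muscle markers fell under it. Several cell type marker lists differed between enteroids of the 2 genotypes. On day 1 the 10 Paneth, the 7 measured goblet, the 8 tested enteroendocrine and the 7 stem cell markers all passed as lower in Mtgr1-/-, and the 11 enterocyte markers all passed as higher. Of the other lists, 3 of 5 tuft markers passed as lower, 4 of 7 epithelial and 1 of 8 immune markers as higher, and the 1 endothelial marker tested did not pass.

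Promoter sequences of RefSeq (GRCm38.p6) were found for 54 of the 66 symbols. They show which of these carry the letters that HSF1 and the ER stress factors are known to bind. The heat shock element is built of inverted GAA units, and 2 adjoining units (GAANNTTC or TTCNNGAA, which read the same on both strands) stood within 250 bases before to 50 bases after the start in 16 of the 71 promoters of these symbols (22.5%) and in 15.1% of all 32851 promoters. An element of 3 units, which includes the pair, was present for 4 symbols, Hspd1, Hspe1, Hsph1 and Dnajb6, in 8.45% of the members' promoters and in 0.603% of all promoters. The ER stress element, a CCAAT box and the letters CCACG set 9 bases apart, was present on either strand for Hspa5, Hsp90b1 and Dnajc3, in 4.23% of the members' promoters and in 0.119% of all promoters. A match is a description of letters and not of binding. No promoter was found for Hsp90aa1, Hsp90ab1, Hspa8, Hspa9, Hspa13, Dnajc2, Dnajc5, Dnajc11, Dnajc12, Dnajc18, Dnajc22 or Dnajc30, so these genes were not searched.

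The stretches that hold these letters are shown for the genes to which the results return, with the matched element in capitals. Hspa1a and Hspa1b, 2 single-exon genes side by side on chromosome 17, are printed for the 250 bases before their RefSeq starts, chr17:34972157-34972406 and chr17:34959239-34959488 on the minus strand, which were identical at 247 of 250 positions. Dnajc3 is printed for chr14:118937682-118937931 on the plus strand. The other windows overlap annotated exons, so only 30 bases around the match are printed. The stretch chr1:55088053-55088082 lies before the RefSeq and annotated starts of Hspe1 (plus strand), within the annotated span of its divergent neighbour Hspd1. For Hspa5 (plus strand) the stretch is chr2:34772020-34772049. In the stretch of Hspd1 and Hspe1 the capitals span 2 overlapping matches of 3 units, a run of 4 units in all. For Hsp90b1 the first of its 2 matches is printed, at chr10:86705632-86705661 (minus strand).
Hspa1a: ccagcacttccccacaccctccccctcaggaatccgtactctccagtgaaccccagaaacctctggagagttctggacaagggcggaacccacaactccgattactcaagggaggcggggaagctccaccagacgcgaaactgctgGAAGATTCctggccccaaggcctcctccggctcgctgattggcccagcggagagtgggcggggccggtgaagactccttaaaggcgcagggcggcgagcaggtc
Hspa1b: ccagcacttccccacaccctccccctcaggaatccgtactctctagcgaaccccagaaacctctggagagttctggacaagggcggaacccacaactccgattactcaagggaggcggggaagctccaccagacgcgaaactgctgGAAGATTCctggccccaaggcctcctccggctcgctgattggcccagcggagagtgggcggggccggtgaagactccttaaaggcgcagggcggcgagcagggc
Hspd1 and Hspe1: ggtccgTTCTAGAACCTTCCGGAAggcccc
Hspa5: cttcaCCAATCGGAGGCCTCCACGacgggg
Hsp90b1: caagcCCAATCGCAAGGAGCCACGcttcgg
Dnajc3: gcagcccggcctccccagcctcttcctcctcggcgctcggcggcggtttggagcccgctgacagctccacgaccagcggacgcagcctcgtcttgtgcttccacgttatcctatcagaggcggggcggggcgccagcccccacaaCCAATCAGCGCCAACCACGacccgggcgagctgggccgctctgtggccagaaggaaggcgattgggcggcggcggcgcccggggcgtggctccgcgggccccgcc

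To see how the genotypes differed in the tissue itself, the crypt libraries were compared first. Of the 67 genes, 59 reached the minimum mean of 10 normalized counts. With limma 0 of the 59 passed in either direction, against 4.73% of all genes tested (1.58% higher and 3.15% lower in Mtgr1-/-). At an unadjusted p under 0.05 there were 7, DESeq2 on the recovered reads called 1 and edgeR called 0, both without the second WT library. The normalized counts of the genotypes did not overlap for 9 of the 59 genes, against 25.5% of all genes tested. The gene nearest the threshold was Dnajc10 (ERdj5), an ER reductase that opens disulfide bonds of misfolded proteins: it stood at 2556, 2602 and 1673 in WT crypts and at 1327, 1389 and 1198 in Mtgr1-/- crypts. All WT values lay above all Mtgr1-/- values, and the log2 fold change was -0.78 (SE 0.18, adjusted p = 0.0627). Dnajc10 passed without the third WT library (log2 fold change -0.99, adjusted p = 0.00648) and did not without any other 1 library (adjusted p = 0.101 to 0.216). Goblet and enteroendocrine markers were already lower in crypts labelled Mtgr1-/-, with 7 of 7 and 8 of 8 passing. Paneth markers had summed levels of 143235 to 197575 in WT and 1485 to 51491 in Mtgr1-/- crypts, with 0 of 10 passing. Stem cell markers summed to 35808 to 45039 and 5011 to 11298, with 1 of 7 passing as lower. Tuft markers ran the other way, at 1253 to 1364 and 1797 to 5975 with 0 of 5 passing, and 1 of 7 epithelial markers passed as higher. Immune cell markers were uneven there, with a summed level of 2329 to 13253 in WT crypts and 876 to 1958 in Mtgr1-/- crypts. The part of any of these marker lists in the crypt values was not tested.

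One crypt library stood apart for the heat-inducible genes. Hspa1b, the strongly inducible cytosolic HSP70, stood at 392, 127 and 276 in WT crypts and at 301, 279 and 1412 in crypts labelled Mtgr1-/-. Hsph1 (HSP110) stood at 4379, 2803 and 4283 against 3320, 2157 and 7931, and Hspa8, the constitutive HSP70 that also strips clathrin coats, at 65803, 61684 and 68919 against 57252, 59234 and 93193. In each case the high value came from the third Mtgr1-/- mouse, whose crypt library had the highest value of the 6 for 6 of the 10 heat-inducible genes tested, 2 of the 8 ER genes and 17.8% of all genes tested. Its ratio to the mean of the other Mtgr1-/- crypts was 5.60 for Hspa1a, 4.87 for Hspa1b, 2.90 for Hsph1, 1.69 for Dnaja1, a cytosolic DNAJ partner of HSP70, and 0.961 for Dnajb1 (HSP40), so that the classical inducible genes did not all follow it. Without that library the log2 fold change in crypts was 0.27 for Hspa1b (1.03 with it) and -0.49 for Hsph1 (0.04 with it), and no member passed the test with or without it.

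**Figure D1:**
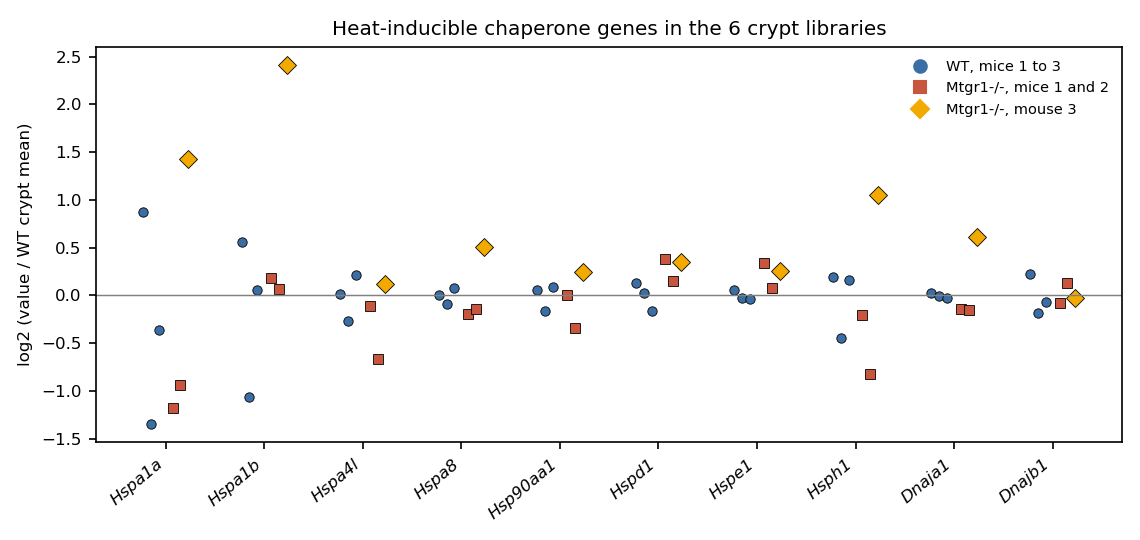
The 10 tested heat-inducible genes in the 6 crypt libraries, each point the log2 ratio of a library's normalized count to the WT crypt mean of that gene (vertical axis) for each gene (horizontal axis), with the third Mtgr1-/- mouse as diamonds. The diamonds stand above all other libraries for Hspa1a, Hspa1b, Hspa8, Hsp90aa1, Hsph1 and Dnaja1, and within the others for Dnajb1.

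After 24 h in culture the genotypes differed at many chaperone genes in both directions. Of the 59 genes tested on day 1, 33 passed, 13 higher (22.0%) and 20 lower (33.9%) in Mtgr1-/-, against 58.9% of all genes tested (30.0% higher and 28.9% lower). The groups did not overlap for 43 of the 59 genes, or 72.9%, against 68.1% of all genes, so that the count of differences was near that of genes at large, and the median log2 fold change of the tested members was -0.03, beside -0.01 over all genes tested. When each library was scaled to its own sum instead, the median of all genes moved to -0.33 on day 1, and 3 members passed as higher and 30 as lower (2206 and 5588 over all genes). Fold changes between genotypes are therefore given relative to the median gene, except where library-sum scaling is named. On day 3, 27 of 59 genes passed, 11 higher (18.6%) and 16 lower (27.1%), against 59.0% of all genes tested (29.9% higher and 29.1% lower), and the groups did not overlap for 38 of 59, against 68.8% of all genes. Scaled to the library sums, the median of all genes on day 3 moved to -0.20, and 5 members passed as higher and 26 as lower (2755 and 5081 over all genes).

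The day 1 and day 3 lists shared 23 genes, 69.7% of the day 1 calls and 85.2% of the day 3 calls, and all 23 had the same direction on both days, 9 higher and 14 lower in Mtgr1-/-. Over all genes tested the shares were 82.5% and 81.1%, and 99.6% of the shared calls had the same direction. The 9 were Hspa1a, Hspa1b, Dnajb9, Dnajb2, Dnajb4, Dnajb12, Dnajc5, Dnajc14 and Dnajc16. The 14 were Hsp90aa1, Hsp90ab1, Hspd1, Hspe1, the main Hspa14 row, Dnajc2, Dnajc8, Dnajc9, Dnajc10, Dnajc12, Dnajc15, Dnajc18, Dnajc21 and Dnajc27. Most differences were under 2-fold: 5 genes on day 1 and 3 genes on day 3 passed with a larger one. By family, 4 of 11 tested DNAJB genes passed as higher and 0 as lower on day 1, beside 30.0% and 28.9% of all genes tested. Of 25 DNAJC genes 5 passed as higher and 9 as lower. Of 11 HSP70 genes, grouped by the symbol Hspa, 3 passed as higher and 4 as lower, the exchange factors Hspa4 and Hspa4l among the latter.

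**Figure D2:**
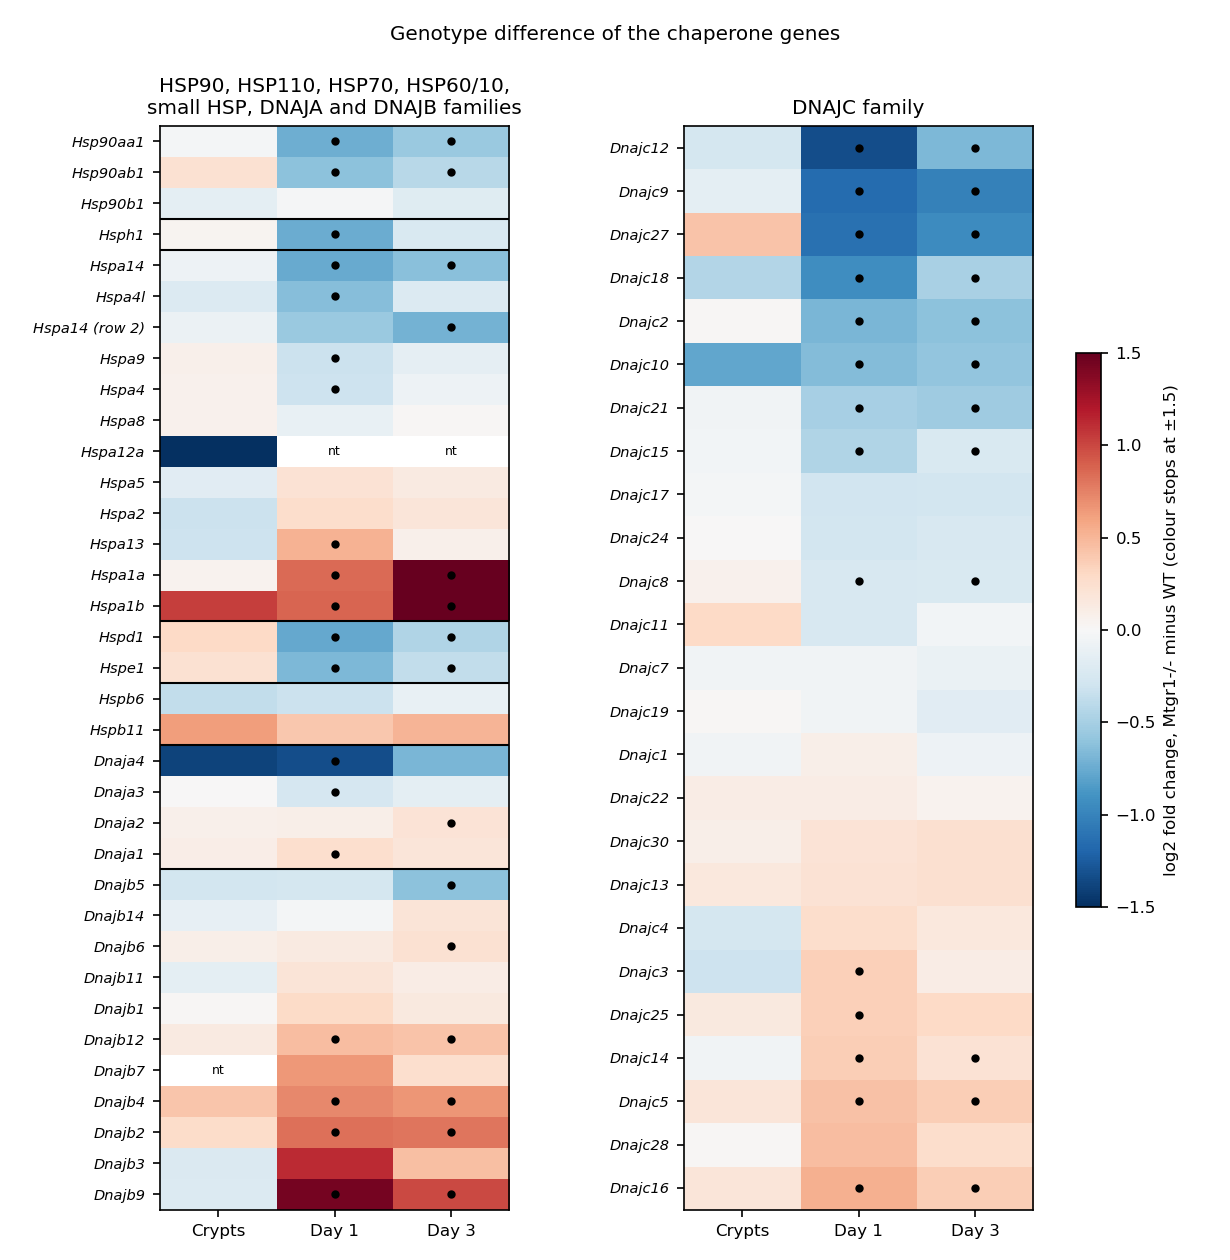
Log2 fold change between genotypes (color, Mtgr1-/- minus WT, blue lower and red higher, color scale stopped at 1.5 in either direction) of each tested gene (rows, grouped by family and ordered by day 1) in crypts, day 1 and day 3 enteroids (columns); dots mark an adjusted p under 0.05 and nt marks a gene under the filter. No dot falls in the crypt columns, and 33 and 27 dots fall in the day 1 and day 3 columns.

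The inducible cytosolic HSP70 genes had the largest rises of the members on day 3. Hspa1b stood at 229, 142 and 260.4 in WT day 3 enteroids and at 1337, 893 and 886 in those labelled Mtgr1-/-, and Hspa1a at 27.8, 18.7 and 28.1 against 228, 114 and 149. Every Mtgr1-/- value of both genes exceeded every WT value, and the log2 fold changes on day 3 were 2.32 (SE 0.25, adjusted p = 0.000182) for Hspa1b and 2.64 (SE 0.29, adjusted p = 0.000218) for Hspa1a. On day 1 the same order held with a smaller gap: Hspa1b stood at 615, 417 and 372 against 852, 1006 and 678 (log2 fold change 0.87, SE 0.22, adjusted p = 0.00965). Hspa1a stood at 86.0, 78.1 and 51.1 against 99.1, 146 and 140.1 on day 1 (log2 fold change 0.84, adjusted p = 0.0239, and 0.0564 to 0.0696 without the third WT, the second Mtgr1-/- or the third Mtgr1-/- library). Of the 50-base words in their transcripts, 60.3% for Hspa1a and 62.3% for Hspa1b also occur in another gene, mostly in each other, so the counts of the pair may be split wrongly. Their sum stood at 257, 160.3 and 288 in WT and 1564, 1007 and 1035 in Mtgr1-/- day 3 enteroids, a difference of 2.36 on the log2 scale. On day 1 it stood at 701, 495 and 423 against 952, 1152 and 818, a difference of 0.87. Scaled to the library sums, both genes kept their day 3 calls and neither passed on day 1. Other members also share many such words with another gene: 48.8% for Hspb1, 47.5% for Hsp90aa1, 39.7% for Hspd1, 38.6% for Hspa8 and 18.4% for Hspe1. Their counts may be split wrongly as well.

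The rest of the heat-inducible list did not follow the HSP70 pair. Of the 10 tested genes of the whole list, the pair included, 3 passed as higher and 5 as lower on day 1. On day 3, 2 passed as higher, which were Hspa1a and Hspa1b themselves, and 3 as lower. Over all genes tested, 30.0% were higher and 28.9% lower on day 1, and 29.9% and 29.1% on day 3. Hspd1 and Hspe1, lower on both days, are in this list and are counted again among the mitochondrial genes below. Hsp90aa1, the inducible cytosolic HSP90, stood at 19415, 17411 and 19618 in WT and at 11525, 13074 and 9492 in Mtgr1-/- day 1 enteroids (log2 fold change -0.74, SE 0.13, adjusted p = 0.00239). The groups were far apart on day 3 as well, where the log2 fold change was -0.56 (SE 0.11, adjusted p = 0.00332). Hsph1 stood at 3191, 3124 and 3936 against 1798, 2465 and 1887 on day 1 (log2 fold change -0.74, SE 0.14, adjusted p = 0.00338), and at 4146, 3378 and 3970 against 4226, 2561 and 3182 on day 3, where the genotypes overlapped and the difference did not pass (log2 fold change -0.23, adjusted p = 0.278). Hspa4l, an HSP110-like exchange factor, fell on day 1 by 0.64 on the log2 scale (SE 0.13, adjusted p = 0.00486) and had a log2 fold change of -0.21 on day 3 (adjusted p = 0.279).

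Hspa8 did not pass at any time. Its day 3 counts of 74796, 76962 and 78505 in WT and 81634, 73855 and 78621 in Mtgr1-/- overlapped, with a log2 fold change of 0.02 (SE 0.12, adjusted p = 0.881). Dnajb1, which loads clients onto the inducible HSP70, stood at 1125, 1058 and 927 against 1408, 1216 and 1176 on day 1. It did not pass (adjusted p = 0.0551), though it did with mouse number as a block (adjusted p = 0.0174). Scaled to the library sums it overlapped, at means of 43.5 in WT and 42.6 in Mtgr1-/- per 1000000 counts. Dnaja1 passed on day 1 as higher by a small amount (log2 fold change 0.25, SE 0.08, adjusted p = 0.028), which turned to -0.070 with library-sum scaling and to -0.052 with quantile normalization, and which was lost without the second or the third WT or the first or the third Mtgr1-/- library (adjusted p up to 0.102). Hspb1 (HSP25), the small heat shock protein of the list, stayed under the filter: it was listed at 0 in the 3 Mtgr1-/- crypt libraries and at 13.7, 7.95 and 4.49 in the Mtgr1-/- day 3 libraries, with WT day 3 values of 1.79, 0 and 0.

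**Figure D3:**
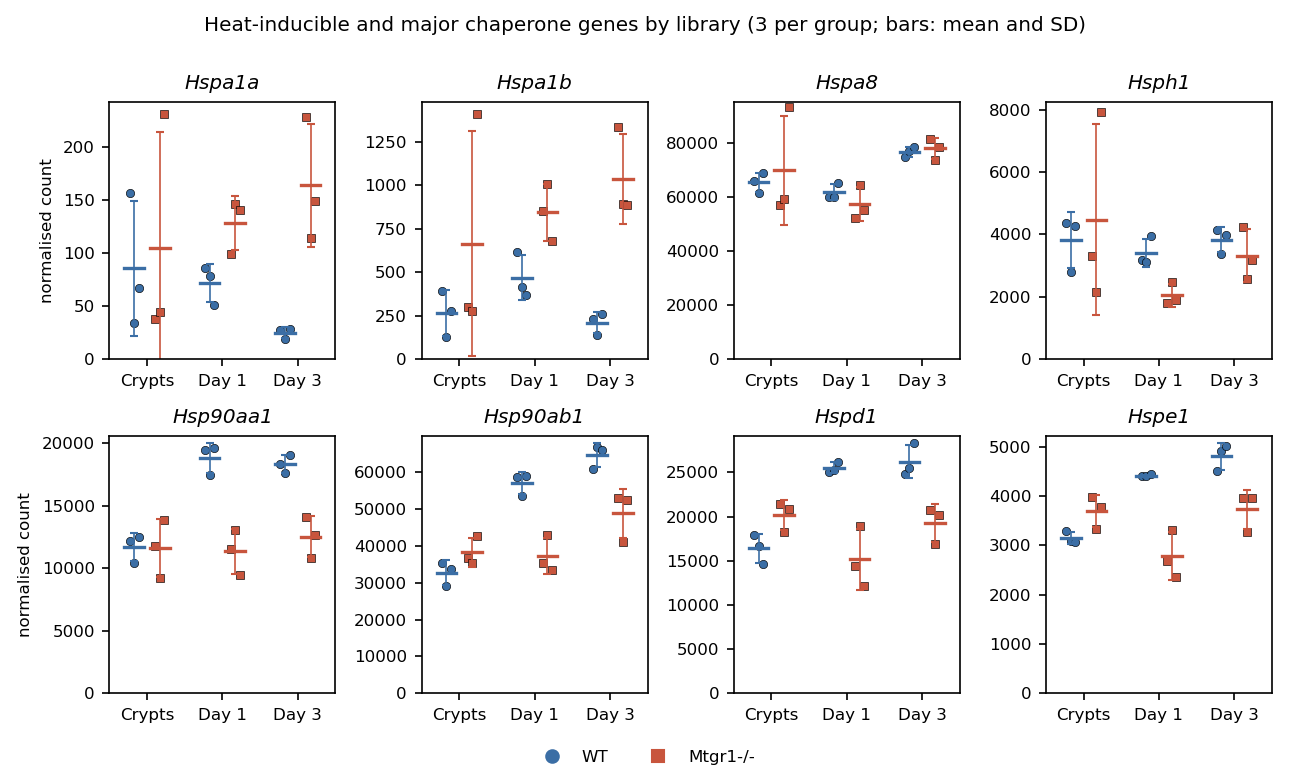
Normalized counts (vertical axes, starting at 0) of 8 cytosolic and mitochondrial chaperone genes in each library by time point (horizontal axes), WT as circles and Mtgr1-/- as squares, with the mean and SD of 3 libraries. Hspa1a and Hspa1b lay higher and Hsp90aa1, Hsp90ab1, Hspd1 and Hspe1 lower in every Mtgr1-/- library than in every WT library of the same day in culture, while Hspa8 overlapped.

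Hsp90ab1, the constitutive cytosolic HSP90, had the second highest level of the members per length in WT crypts after Hspa8 (510.3 and 1075 per 1000000 counts and kilobase of transcript). It stood at 58575, 53514 and 58766 in WT and 35346, 42835 and 33442 in Mtgr1-/- day 1 enteroids, and it fell by 0.62 on the log2 scale (SE 0.14, adjusted p = 0.00641). On day 3 its values of 60847, 66793 and 65994 against 52852, 41036 and 52381 still did not overlap, and the log2 fold change was -0.41 (SE 0.14, adjusted p = 0.0318). Leaving out any 1 of the WT day 3 libraries took that call away (adjusted p = 0.0615 to 0.103).

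The mitochondrial chaperonin fell on both days. Hspd1 (HSP60) and Hspe1 (HSP10), which form the folding chamber of the mitochondrial matrix, are transcribed in opposite directions from the region around the heat shock element printed above. Hspd1 stood at 25069, 25226 and 26226 in WT and at 14395, 18962 and 12165 in Mtgr1-/- day 1 enteroids (log2 fold change -0.77, SE 0.16, adjusted p = 0.00452). Hspe1 stood at 4405, 4396 and 4439 against 2681, 3309 and 2362 (log2 fold change -0.68, SE 0.12, adjusted p = 0.00249). No Mtgr1-/- value of either gene reached the WT range. On day 3 the differences were smaller, at -0.45 (SE 0.11, adjusted p = 0.0102) and -0.37 (SE 0.10, adjusted p = 0.0121, and 0.0516 without the third WT library). In crypts the order was opposite, with Hspd1 at 17938, 16674 and 14632 in WT and 21406, 18225 and 20865 in Mtgr1-/-, a log2 fold change of 0.30 that did not pass (adjusted p = 0.276).

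Of the 8 mitochondrial genes, 5 passed as lower on day 1 and 3 on day 3, beside 28.9% and 29.1% of all genes tested, and 0 as higher on either day. Hspa9 (mortalin), the mitochondrial HSP70 that pulls proteins through the inner membrane, fell by 0.32 on day 1 (SE 0.10, adjusted p = 0.0255) and had a log2 fold change of -0.14 on day 3 (adjusted p = 0.236). Dnajc15, a J protein of the import motor, fell by 0.46 on day 1 (SE 0.09, adjusted p = 0.00412) and by 0.23 on day 3 (adjusted p = 0.038), and Dnaja3 (Tid1), the main J protein of the matrix, by 0.25 on day 1 (adjusted p = 0.0338). The Hspa9 and Dnaja3 calls were lost without the first or the third WT library, among others (adjusted p up to 0.0926 and 0.110), and the day 3 call of Dnajc15 without any 1 library but the second Mtgr1-/- (up to 0.107). Dnajc19, Dnajc30 and Dnajc11 did not pass, with day 1 log2 fold changes of -0.05, 0.20 and -0.24.

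The 8 genes of the ER lumen split. On day 1, 3 passed as higher and 1 as lower, and on day 3, 1 as higher and 1 as lower. Over all genes tested, 30.0% passed as higher and 28.9% as lower on day 1, and 29.9% and 29.1% on day 3. Dnajb9 (ERdj4), a target of the unfolded protein response that delivers misfolded proteins to BiP, stood at 986, 808 and 732 in WT and 2889, 1798 and 2231 in Mtgr1-/- day 1 enteroids (log2 fold change 1.44, SE 0.18, adjusted p = 0.000611). On day 3 it stood at 649.8, 679 and 691 against 1165, 1612 and 1283 (log2 fold change 0.99, SE 0.12, adjusted p = 0.000369), again with no overlap, and it passed under each alternative run on both days. Hspa13 (STCH), an atypical HSP70 of microsomes, rose on day 1 by 0.52 (SE 0.11, adjusted p = 0.00441) and Dnajc3 (p58IPK), a cochaperone of BiP that carries the ER stress element, by 0.35 (SE 0.08, adjusted p = 0.0059). On day 3 these 2 genes overlapped between genotypes, with log2 fold changes of 0.07 and 0.11.

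The most abundant ER chaperones did not pass. Hspa5 (BiP), the ER HSP70, stood at 21712, 19303 and 22758 in WT and at 24418, 24144 and 25548 in Mtgr1-/- day 1 enteroids. Its log2 fold change was 0.22 (SE 0.11), with an adjusted p of 0.108, and of 0.0498 with mouse number as a block. Scaled to the library sums the order was opposite, with overlap, at means of 892 in WT and 831 in Mtgr1-/- per 1000000 counts. Dnajb11 (ERdj3) was alike, with a log2 fold change of 0.20 (SE 0.09) and an adjusted p of 0.0879 without and 0.0293 with the block. Per 1000000 counts it averaged 158 in WT and 145 in Mtgr1-/-, with overlap. Hsp90b1 (GRP94), the ER HSP90, stood at 20641, 19578 and 20634 against 20183, 20489 and 19452 (log2 fold change -0.02, SE 0.09, adjusted p = 0.883). The 3 genes in whose promoters the ER stress element was found thus had day 1 log2 fold changes of 0.22, -0.02 and 0.35. Dnajc10 ran the other way: it stood at 3447, 2910 and 3075 in WT and 2141, 1945 and 1914 in Mtgr1-/- day 1 enteroids (log2 fold change -0.65, SE 0.09, adjusted p = 0.000963) and fell by 0.59 on day 3 (SE 0.09, adjusted p = 0.000997). Dnajc1 (ERdj1), a J protein at the ribosome exit of the ER membrane, had log2 fold changes of 0.09 and -0.08.

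**Figure D4:**
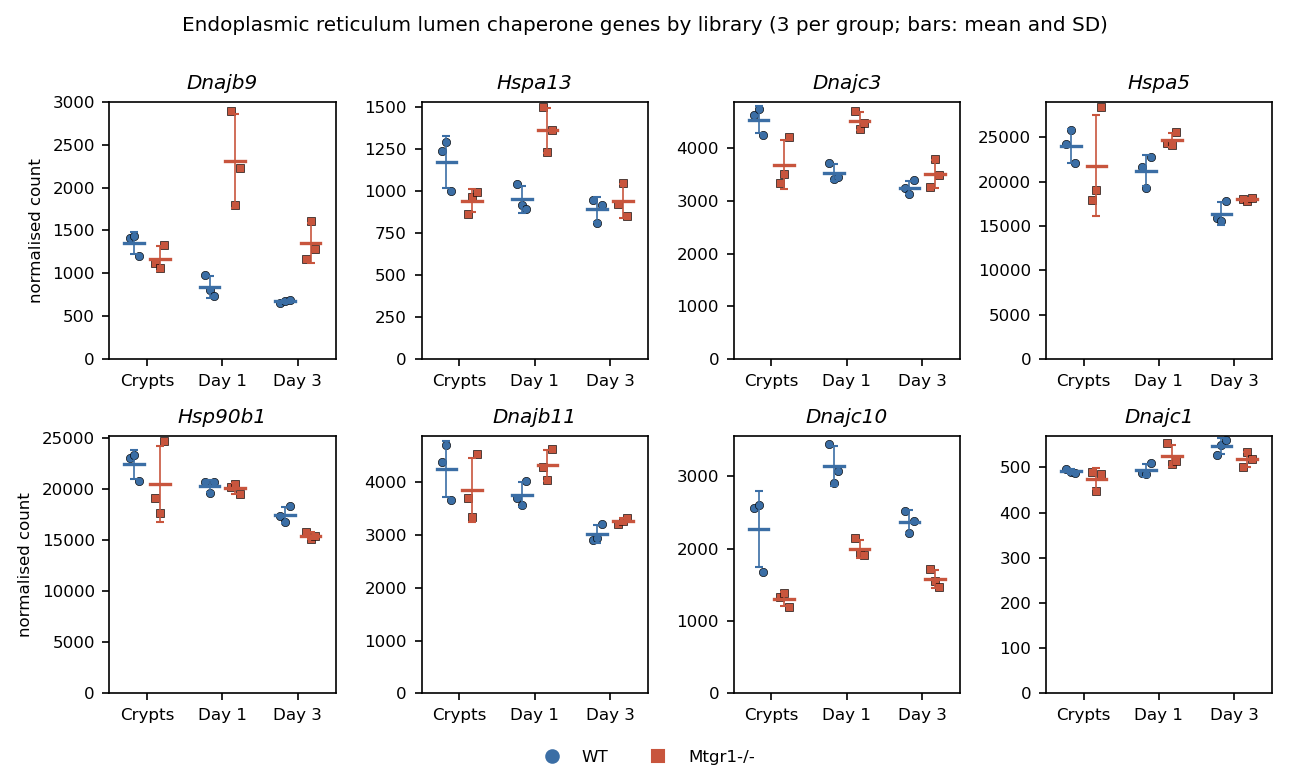
Normalized counts (vertical axes, starting at 0) of the 8 ER lumen genes in each library by time point (horizontal axes), WT as circles and Mtgr1-/- as squares, with the mean and SD of 3 libraries. On day 1 and day 3 the Mtgr1-/- squares of Dnajb9 lie above, and those of Dnajc10 below, all WT circles, and Hsp90b1 overlaps on day 1.

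Outside these compartments, 4 DNAJ genes fell by more than 2-fold on day 1. Dnajc9, a J protein that also chaperones histones, stood at 1116, 1157 and 1089 in WT and 463, 639 and 431 in Mtgr1-/- day 1 enteroids (log2 fold change -1.15, SE 0.15, adjusted p = 0.000667) and fell by 1.02 on day 3 (SE 0.16, adjusted p = 0.00101). The 8 proliferation markers moved with it: 7 passed as lower on day 1 and 8 on day 3, and their summed level was 48796 to 49820 in WT and 20633 to 28968 in Mtgr1-/- day 1 enteroids, with none of them at 0. Their part in the result was not tested, and in bulk RNA fewer cells of a type and less RNA per cell cannot be told apart. Dnajc12, a cochaperone of the aromatic amino acid hydroxylases, stood at 79.6, 62.5 and 88.8 against 32.7, 30.3 and 26.5 on day 1 (log2 fold change -1.33, SE 0.24, adjusted p = 0.00233). Enteroendocrine cells use such an enzyme to make serotonin. Their markers had a summed level of 7602 to 10151 in WT and 64.1 to 152 in Mtgr1-/- on that day, and their part in this result was not tested either. On day 3 Dnajc12 fell by 0.67 (adjusted p = 0.0231), a call lost without any 1 of the WT libraries (0.0664 to 0.0707).

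Dnajc27, a Rab-like GTPase with a J domain, stood at 64.9, 94.8 and 97.2 in WT and at 42.0, 43.6 and 30.9 in Mtgr1-/- day 1 enteroids (log2 fold change -1.11, SE 0.26, adjusted p = 0.00713). It fell by 0.94 on day 3 (adjusted p = 0.0141, and 0.0561 without the second WT library). Dnaja4, at 34.8, 45.8 and 63.7 against 15.2, 15.2 and 25.4, fell by 1.32 on day 1 (SE 0.35, adjusted p = 0.0122) and had a log2 fold change of -0.69 on day 3 (adjusted p = 0.095). Dnajc18 fell by 0.93 on day 1 (SE 0.19, adjusted p = 0.00396) and by 0.49 on day 3 (adjusted p = 0.0441), the latter lost without any 1 library but the first Mtgr1-/- (0.0546 to 0.139). Dnajb5 passed only on day 3, with a log2 fold change of -0.61 (adjusted p = 0.0163, and 0.0569 or 0.0683 without the first or second WT library). Hspa4, an exchange factor of HSP70 (-0.31, adjusted p = 0.0296), Dnajc8 (-0.24, adjusted p = 0.0238) and Dnajc25 (0.35, adjusted p = 0.0336) passed on day 1 by small log2 fold changes, each lost without the first WT or the first Mtgr1-/- library, among others (adjusted p up to 0.121). Dnajc8 (-0.23, adjusted p = 0.021), Dnaja2 (0.20, adjusted p = 0.0462) and Dnajb6 (0.22, adjusted p = 0.0246) did so on day 3, each lost without any 1 of the WT libraries (up to 0.140), and Dnaja2 turned to -0.024 with quantile normalization.

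The ribosome-bound pair fell together. Dnajc2 (MPP11) and Hspa14 (HSP70L1) form the complex that meets nascent chains on the ribosome. Dnajc2 stood at 2357, 2185 and 2317 in WT and 1394, 1568 and 1314 in Mtgr1-/- day 1 enteroids (log2 fold change -0.68, SE 0.09, adjusted p = 0.000746), and Hspa14 at 1596, 1614 and 1632 against 912, 1129 and 853 (log2 fold change -0.75, SE 0.12, adjusted p = 0.00123). On day 3 they fell by 0.62 (adjusted p = 0.000418) and 0.63 (adjusted p = 0.00123). A second row that carries the symbol Hspa14 is a gene that GENCODE M21 names Gm45902. Its principal transcript has 5 exons and 4314 bases, against 14 exons and 1795 bases for the main row. This second row had a log2 fold change of -0.71 on day 3 (adjusted p = 0.0257). That call was lost without the first or the third WT or the third Mtgr1-/- library (up to 0.0961). Dnajc21, which acts in ribosome biogenesis, fell by 0.50 on day 1 (SE 0.10, adjusted p = 0.00332) and by 0.54 on day 3 (SE 0.08, adjusted p = 0.000897).

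Of the genes that rose outside the HSP70 pair and the ER, Dnajb2 carries ubiquitin-interacting motifs and sorts clients to the proteasome. It stood at 422, 497 and 467 in WT and 843, 807 and 795 in Mtgr1-/- day 1 enteroids (log2 fold change 0.82, SE 0.10, adjusted p = 0.000548) and rose by 0.80 on day 3 (SE 0.10, adjusted p = 0.000383). Dnajb4, a close relative of Dnajb1, stood at 298, 285 and 291 against 511, 474 and 457 on day 1 (log2 fold change 0.72, SE 0.11, adjusted p = 0.00107) and rose by 0.67 on day 3 (SE 0.17, adjusted p = 0.011). Neither gene overlapped between genotypes on either day, and together with Dnajb9 they were the 3 members that passed as higher on day 1 under library-sum scaling. Dnajb12, anchored in the ER membrane, rose by 0.46 and 0.42 on day 1 and day 3 (adjusted p = 0.00613 and 0.00771), and Dnajc16 by 0.54 and 0.37 (adjusted p = 0.0017 and 0.00807). Dnajc14 rose by 0.37 on day 1 (adjusted p = 0.00534), and its value of 0.22 on day 3 (adjusted p = 0.0317) was lost without any 1 of the WT libraries or the first Mtgr1-/- library (0.0708 to 0.0937). Scaled to the library sums, Dnajb12, Dnajc14 and Dnajc16 kept a positive sign but no longer passed on either day, and the same held for Dnajc5 on both days, for Dnajc3, Hspa13 and Dnajc25 on day 1 and for Dnajb6 and Dnaja2 on day 3.

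Of the 3 genes of clathrin uncoating and vesicle release, Dnajc5 (cysteine string protein), which guards secretory vesicles, rose on day 1 by 0.44 (SE 0.12, adjusted p = 0.0152) and on day 3 by 0.37 (SE 0.07, adjusted p = 0.00309). The day 1 call was lost without the second WT or the first Mtgr1-/- library (adjusted p = 0.0578 and 0.0561). Dnajc13 (RME-8), an endosomal J protein, had log2 fold changes of 0.22 and 0.24 that did not pass (adjusted p = 0.0825 and 0.0939). The day 1 value did pass with mouse number as a block (adjusted p = 0.0266). Scaled to the library sums, its day 1 order was opposite, with overlap, at means of 173 in WT and 161 in Mtgr1-/- per 1000000 counts. Dnajc6 (auxilin), which brings Hspa8 to coated vesicles in neurons, stayed under the filter with a highest value of 25.3. It was 1 of 7 members never tested, with Dnajb13, Hspa12b, Hspa1l, Hspb1, Hspb7 and Hspb8, whose values did not exceed 13.7 in any library.

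To ask whether the genotype difference itself changed in culture, it was compared between time points in 1 limma fit over the 18 libraries with mouse as a random effect. Between crypts and day 1 it changed for 22 of 58 members tested (37.9%), 7 toward higher and 15 toward lower values in Mtgr1-/-, against 41.1% of all genes tested. The upward shifts were led by Dnajb9 (1.64, SE 0.23, adjusted p = 0.000459), Hspa13 (0.83, SE 0.16, adjusted p = 0.00217) and Dnajc3 (0.66, SE 0.12, adjusted p = 0.00169). The downward shifts were led by Dnajc27 (-1.54, SE 0.37, adjusted p = 0.00549), Hspd1 (-1.07, SE 0.20, adjusted p = 0.00166), Dnajc12 (-1.07, adjusted p = 0.0162), Dnajc9 (-1.01, adjusted p = 0.00483) and Hspe1 (-0.90, adjusted p = 0.00126). The count was 13 without the first WT mouse, and Dnajc12 lost its call without the first or the third WT mouse (adjusted p up to 0.0895). The log2 fold changes of Dnajb9, Hspa13 and Dnajc3 went from -0.20, -0.31 and -0.31 in crypts to 1.44, 0.52 and 0.35 on day 1, and those of Hspd1 and Hspe1 from 0.30 and 0.23 to -0.77 and -0.68.

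Between crypts and day 3 the difference changed for 13 of 58 members (22.4%), against 31.2% of all genes tested. Dnajb9 (1.20, SE 0.23, adjusted p = 0.0027) and Dnajc27 (-1.37, SE 0.37, adjusted p = 0.0146) again had large shifts, the latter lost without the first WT or second Mtgr1-/- mouse (adjusted p up to 0.0658). Hspa1a had a shift of 2.59 (SE 0.83, adjusted p = 0.0291), lost without any 1 mouse but the third Mtgr1-/- (up to 0.142). Its near-identical neighbour Hspa1b had a shift of 1.28 that did not pass (SE 0.72, adjusted p = 0.183). The log2 difference of their summed counts was 0.86 in crypts and 2.36 on day 3. The count fell to 3 without the first or the second WT mouse, to 4 without the third and to 8 without the second Mtgr1-/- mouse. Between day 1 and day 3, 0 of 59 members passed, against 0.0322% of all genes tested, with 3 at an unadjusted p under 0.05 (Hspa13, Hspa1a and Dnajc15). Without the second Mtgr1-/- mouse 4 passed, namely Hspd1, Hspe1, Hspa13 and Dnajb9.

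**Figure D5:**
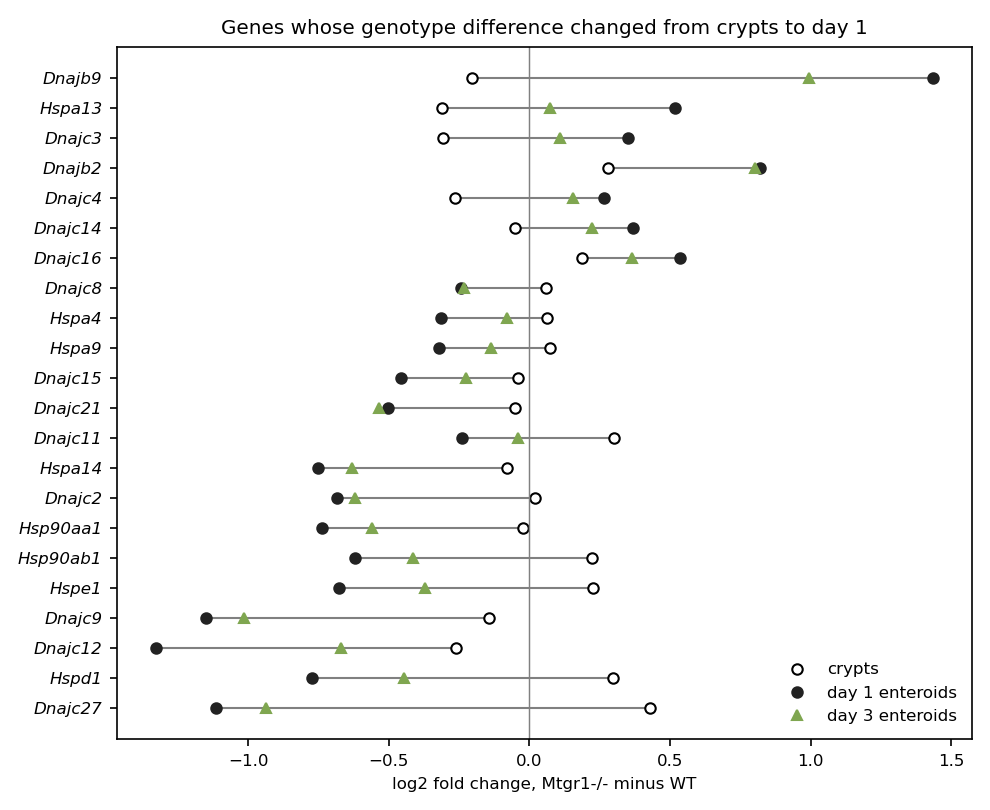
Log2 fold change between genotypes (horizontal axis, Mtgr1-/- minus WT) in crypts, day 1 and day 3 enteroids for the 22 members (rows) whose genotype difference changed between crypts and day 1, lines joining crypts to day 1. Dnajb9 has the largest shift upward, by 1.64, and Dnajc27 the largest downward, at -1.54, and the day 3 values lie near those of day 1 for Dnajb2 and Dnajc8.

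The levels over time were set side by side within each genotype. The tables were scaled separately, so each value was divided by the sum of its library, and no test was run. These levels are not relative to the median gene. Per 1000000 counts, Hspd1 went from 646 ± 74.8 (SD, n = 3) in WT crypts to 1072 ± 56.8 on day 1 and 1093 ± 66.2 on day 3, while in Mtgr1-/- it went from 809 ± 70.2 to 517 ± 161 and 704 ± 117. Hsp90ab1 had a ratio of day 1 to crypts of 1.86 without overlap in WT libraries and of 0.827 with overlap in Mtgr1-/-. Dnajb9 went down in WT, from 53.1 ± 5.69 to 35.3 ± 4.30 and 28.1 ± 0.536. In Mtgr1-/- it went up and then down, from 46.9 ± 2.44 to 76.9 ± 14.0 and 48.9 ± 5.17. Hspa1b went down from day 1 to day 3 in WT, from 19.5 ± 4.64 to 8.78 ± 2.56, with no overlap, and overlapped between the days in Mtgr1-/-, at 28.7 ± 7.74 and 38.1 ± 11.5. Of the 60 members tested at any time, 32 lay higher on day 1 than in crypts without overlap in WT libraries and 9 lower, against 45.7% and 19.6% of genes, and in Mtgr1-/- libraries 11 lay higher and 16 lower, against 15.2% and 23.4%.

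The other genes of the pathway were read from lists of cochaperones, chaperonins and stress factors, chosen with earlier results of these data known. Hsf1, the master factor of the heat shock response, fell on day 1 from 858 ± 75.4 in WT to 543 ± 118 normalized counts in Mtgr1-/- (SD, n = 3, log2 fold change -0.68, adjusted p = 0.00771) and on day 3 by 0.49 (adjusted p = 0.0104). Hsf2 fell by 0.55 and 0.50 (adjusted p = 0.0209 and 0.0148). Hsbp1, whose product binds and restrains HSF1, rose by 0.45 and 0.27 (adjusted p = 0.00204 and 0.0202), and Hsf5 passed as higher on day 3 from low counts, 4.27 ± 2.72 against 17.3 ± 7.45 (adjusted p = 0.0172). In crypts 0 of the 4 tested factors passed.

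The TRiC chaperonin and its partner prefoldin fold actin and tubulin. Of their 14 genes, 9 passed as lower and 0 as higher on day 1 (median log2 fold change -0.41), and 8 and 0 on day 3 (median -0.25), beside 28.9% lower and 30.0% higher of all genes on day 1 and 29.1% and 29.9% on day 3. Cct8 and Cct5 fell by 0.55 and 0.54 on day 1 (adjusted p = 0.00444 and 0.00211). Of 26 cochaperones of HSP70 and HSP90, 5 passed as higher and 8 as lower on each day. The lower count was near the share of all genes, and the higher count was below its share. Bag2 fell by 1.12 and Ppid by 1.04 on day 1 (adjusted p = 0.00379 and 0.00148), while Fkbp5, which glucocorticoids are known to induce, rose from 1039 ± 221 to 3476 ± 598 normalized counts (log2 fold change 1.75, SE 0.17, adjusted p = 0.000258). In crypts Fkbp5 was also high in the third Mtgr1-/- library, at 2656 against a mean of 638 in the other Mtgr1-/- libraries, but WT crypts reached 2781.

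Outside the members, 3 of 10 tested ER chaperones passed as higher and 1 as lower on day 1, and 2 each way on day 3. The shares of all genes were 30.0% higher and 28.9% lower on day 1, and 29.9% and 29.1% on day 3. P4hb, a protein disulfide isomerase that is also a subunit of the lipid transfer protein of enterocytes, rose by 1.28 on day 1 (SE 0.16, adjusted p = 0.000624) and by 1.00 on day 3 (adjusted p = 0.00155), and the 11 enterocyte markers had summed levels of 154008 to 201984 in WT and 457058 to 783491 in Mtgr1-/- day 1 enteroids, with none of them at 0. Their part in the result was not tested. Pdia6, another disulfide isomerase, fell by 0.37 on day 1 (adjusted p = 0.00545). Of 7 other mitochondrial chaperones and import factors, 3 passed as lower and 0 as higher on each day, and Grpel2, an exchange factor of Hspa9, fell by 0.60 and 0.55 (adjusted p = 0.00895 and 0.00901).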

How the data were processed

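Single-end 50 bp stranded mRNA reads were, per the labels and the study's methods, trimmed by the authors with fastp 0.20.0 and quantified with Salmon 1.3.0 against GENCODE M21. The deposited signal values were gene counts that the authors divided by DESeq2 1.26.0 size factors, in 1 table per time point, with fold changes and p-values in further columns that were not used. Whole reads were recovered from the steps of the low values in 16 of 18 libraries, where 100% of values came out whole within 0.01 of a step. An earlier fit of the values had not marked the second WT crypt and the second Mtgr1-/- day 3 library as recovered. These 2 libraries were therefore left out of edgeR and DESeq2, although 100% of their values also came out whole.

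Per time point, genes whose values averaged 10 or more entered limma 3.58.1 (trend), on log2(value + 1), with Benjamini-Hochberg adjustment over all genes and a threshold of 0.05. A fold change on this scale understates the change of low genes. The change of the genotype difference between time points was fitted over the 18 libraries with mouse, by its number and genotype, as a random effect. edgeR 4.0.16 (quasi-likelihood) called 52 genes higher and 157 lower in crypts, 3638 and 3745 on day 1 and 3665 and 3577 on day 3, and DESeq2 1.42.0 called 434 and 766, 3852 and 3657, and 3597 and 3370. Tested on simulated data, the limma step recovered 195, 193 and 195 of 200 genes changed 2-fold in the crypt, day 1 and day 3 designs, with 2, 2 and 3 other genes called. The counts were drawn from WT means, with the same median spread for every gene and no outlying library. They therefore do not show how many changes were missed among genes that vary more. In real crypts Dnaja4 and Hspa12a had log2 fold changes of -1.39 and -2.25 and did not pass (limma, adjusted p = 0.246 and 0.308).

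Mouse numbers come from the labels. On day 1 every same-numbered pair deviated together (correlations of 0.116 to 0.231), and the blocked values stand beside the day 1 results they change. The text names all members of the lists of heat-inducible, ER lumen, mitochondrial and vesicle genes, the largest rises and falls per comparison, and up to 2 of each direction from each other list. Members were taken by symbol without use of their values, while the lists were chosen with earlier results of these data known. Other alternatives were pseudocounts, filters, scalings, array weights and leaving out each library. Library-sum scaling was added after seeing the data.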

Additional observations from a re-analysis of the deposited data

Results flagged for a closer look

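The genotype difference (Mtgr1-/- minus WT, log2) itself differed between time points for the following members, by a test of that difference (limma over 18 libraries with mouse as a random effect). From crypts to day 1 it moved up by 1.64 for Dnajb9, 0.83 for Hspa13, 0.66 for Dnajc3, 0.54 for Dnajb2 and 0.53 for Dnajc4 (adjusted p = 0.000459, 0.00217, 0.00169, 0.0424 and 0.0352). It moved by -1.54 for Dnajc27, -1.07 for Hspd1, -1.07 for Dnajc12, -1.01 for Dnajc9 and -0.90 for Hspe1 (adjusted p = 0.00549, 0.00166, 0.0162, 0.00483 and 0.00126). The Dnajc4 call was lost without any 1 mouse (adjusted p up to 0.106), that of Dnajb2 without any but the third Mtgr1-/- mouse (up to 0.183) and that of Dnajc12 without the first or the third WT mouse (up to 0.0895).

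From crypts to day 3 it moved by 2.59 for Hspa1a, 1.20 for Dnajb9, 0.41 for Dnajc3 and 0.27 for Dnajc14 (adjusted p = 0.0291, 0.0027, 0.0202 and 0.0319), and by -1.37 for Dnajc27, -0.87 for Dnajc9, -0.74 for Hspd1, -0.64 for Dnajc2 and -0.64 for Hsp90ab1 (adjusted p = 0.0146, 0.0146, 0.0131, 0.0135 and 0.0221). Of these 9, Dnajb9 kept its call with each mouse left out in turn. Hspa1a and Dnajc14 were lost without any mouse but the third Mtgr1-/- (up to 0.142 and 0.107), and Dnajc9 and Hsp90ab1 without any 1 WT mouse (up to 0.0678 and 0.119). Hspa1b, the near-identical neighbour of Hspa1a, moved by 1.28 and did not pass (adjusted p = 0.183). Dnajc3 was lost without the first or second WT or the second Mtgr1-/- mouse (up to 0.109), Dnajc27 without the first WT or second Mtgr1-/- (up to 0.0658), Hspd1 without the second or the third WT (up to 0.0768) and Dnajc2 without the first or the third WT (up to 0.0723).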

How the results depend on the processing

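Of the called members, 19 of 33 on day 1 and 12 of 27 on day 3 were called under every alternative run, and 25 and 15 remained called without any 1 library. Over the called members and interactions, 1304 of 1500 recomputed values kept direction and side of the threshold, 192 lost the call and 4 reversed. The reversals were Dnaja1 on day 1 (-0.070 with library-sum scaling, -0.052 with quantile normalization), Dnaja2 on day 3 (-0.024 with quantile normalization) and Dnajc16 for day 1 against crypts (-1.034e-05 with library-sum scaling). Among uncalled values the sign changed somewhere for 25 members in crypts, 14 on day 1 and 15 on day 3.

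In crypts, where 0 members passed, 1 passed as higher with array weights and 1 without the trend. As lower, 4 passed with array weights and 1 each with median-ratio rescaling, quantile normalization and DESeq2, and the range without 1 library was 0 to 1. Library-sum scaling gave 3 higher on day 1 (13 in the reported fit) and 5 higher and 26 lower on day 3 (11 and 16). Without 1 library the day 3 count of lower members ranged from 9 to 16, with 9 without each WT library. Without 1 mouse the counts of changed differences ranged from 13 to 23 for day 1 against crypts, 3 to 17 for day 3 against crypts and 0 to 4 for day 3 against day 1. Beyond the smaller number of samples in the fits that leave some out, the causes were not tested.

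With mouse number as a replicate block, 0 members passed as higher and 1 as lower in crypts, 17 and 20 on day 1 and 9 and 14 on day 3. The crypt call was Dnajc10 (adjusted p = 0.0382), and the day 3 calls lost were Hsp90ab1, Dnajc14, Dnajc15 and Dnaja2 (0.058, 0.0587, 0.0675 and 0.077). In crypts the same-number correlations were 0.0764 to 0.346, and those of differently numbered pairs ran from -0.302 to 0.201. The same-number pairs thus deviated together there, though the ranges overlapped. On day 3 the same-number correlations were -0.0156 to -0.0023, so that on that day the numbers do not pair the samples by this measure.

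The p-values rest on the spread between mice, and 3 libraries per group limit the precision of every value. Depth was similar across libraries and limits mainly the 7 untested members, whose counts lie near 0.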
